A study of Mus musculus with 52 samples.

Results

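The step described here is the change in gene expression of the suprachiasmatic nucleus (SCN) between 1 h and 3 h of light given in the subjective night. Its members are the 2 libraries after 1 h and the 2 after 3 h, that is 4 of the 16 libraries of a light-pulse experiment in a series of 52 samples, and they were chosen by these labels alone. The SCN is a paired nucleus of the hypothalamus that holds the circadian pacemaker, and RNA was sequenced from whole tissue. All groups used came from male mice of 11-12 weeks. The 4 libraries of the step came from wild-type mice in which light began at circadian time (CT) 17, counted in hours of the animal's own cycle, and lasted 1 h or 3 h. The other light-pulse groups, also wild type, were dark at CT17 (4 libraries), light for 0.5 h (4 libraries), light for 6 h (2 libraries) and dark at CT23 (2 libraries). A second experiment compared Npas4-/- mice (null below) with wild-type littermates, in the dark and after light of 1 h, and its 4 groups held 3 libraries apiece. Each library pooled 6 pairs of SCN, so that a library is not 1 animal, and nothing says that the libraries of a group came from separate days. P-values therefore rest on a spread among libraries that may be technical.

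Light in the night reaches the SCN through glutamate and PACAP released by retinal fibres. It raises calcium, the MAPK cascade and phosphorylated CREB in the receiving neurons, which switches on immediate-early genes without new protein synthesis. Many of these encode transcription factors (the Egr, Nr4a and AP-1 families), and their transcripts are short-lived. A later wave of genes follows, with neuropeptide precursors, phosphodiesterases and secreted proteins among them, while the clock gene Per1 links the light signal to the oscillator.

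The sequences below show the promoter stretch of 5 genes that fell over the step and of 1 that rose (Fbxl21). Each holds a motif bound by a factor family of this response or, in Per1, by clock factors. They are examples with a motif and do not show how common motifs are among the called genes. They are the 250 bases before a start listed by RefSeq on GRCm38.p6, the assembly also named mm10, printed 5′ to 3′ on the strand of the gene. Capitals mark the motifs searched on both strands: the cAMP response element TGACGTCA, bound by CREB, the E-box CACGTG, bound by CLOCK and BMAL1, and the EGR sequence GCGNGGGCG, bound by Egr factors.
Btg2, chr1:134079156-134079405, minus strand: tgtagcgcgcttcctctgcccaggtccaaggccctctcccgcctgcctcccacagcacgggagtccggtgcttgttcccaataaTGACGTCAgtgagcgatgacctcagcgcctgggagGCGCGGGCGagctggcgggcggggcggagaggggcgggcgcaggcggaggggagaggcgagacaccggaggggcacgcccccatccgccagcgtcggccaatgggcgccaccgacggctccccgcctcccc
Dusp1, chr17:26508473-26508722, minus strand: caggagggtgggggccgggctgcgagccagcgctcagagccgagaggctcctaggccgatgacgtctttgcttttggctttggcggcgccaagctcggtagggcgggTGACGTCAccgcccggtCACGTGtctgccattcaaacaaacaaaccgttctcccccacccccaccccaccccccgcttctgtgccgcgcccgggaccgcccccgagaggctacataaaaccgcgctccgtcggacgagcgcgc
Nr4a1, chr15:101266596-101266845, plus strand: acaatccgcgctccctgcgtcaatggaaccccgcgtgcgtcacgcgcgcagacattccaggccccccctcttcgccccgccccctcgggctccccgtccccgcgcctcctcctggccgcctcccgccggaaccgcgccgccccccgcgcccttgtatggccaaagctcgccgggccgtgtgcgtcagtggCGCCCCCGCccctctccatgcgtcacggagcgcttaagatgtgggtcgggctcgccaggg
Fosb, chr7:19310046-19310295, minus strand: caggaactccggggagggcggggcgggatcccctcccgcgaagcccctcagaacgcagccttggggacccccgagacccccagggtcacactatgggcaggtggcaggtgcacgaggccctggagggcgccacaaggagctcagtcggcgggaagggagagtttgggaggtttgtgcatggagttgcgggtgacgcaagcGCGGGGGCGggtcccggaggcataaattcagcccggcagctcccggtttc
Per1, chr11:69098699-69098948, plus strand: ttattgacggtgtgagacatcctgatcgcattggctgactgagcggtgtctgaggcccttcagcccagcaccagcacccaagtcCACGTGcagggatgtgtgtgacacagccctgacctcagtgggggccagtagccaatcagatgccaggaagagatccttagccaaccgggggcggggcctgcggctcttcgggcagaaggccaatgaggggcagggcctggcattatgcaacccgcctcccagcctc
Fbxl21, chr13:56522222-56522471, plus strand: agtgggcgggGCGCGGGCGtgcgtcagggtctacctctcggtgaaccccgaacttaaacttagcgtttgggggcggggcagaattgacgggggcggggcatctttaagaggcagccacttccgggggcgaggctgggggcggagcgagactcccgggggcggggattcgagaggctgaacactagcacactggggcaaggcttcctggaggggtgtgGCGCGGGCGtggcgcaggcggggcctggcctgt

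Btg2 carried the cAMP response element from -166 to -159 and the EGR sequence from -131 to -123, counted from the listed start. Dusp1 carried the cAMP response element from -143 to -136 and an E-box from -126 to -121, and Per1, shown at one of its listed starts, an E-box from -166 to -161. The EGR sequence stood from -60 to -52 in Nr4a1, there on the opposite strand, from -50 to -42 in Fosb, and in Fbxl21 from -240 to -232 and from -33 to -25. Of the 11111 genes tested that had such a window, 2.72% held the cAMP response element, 8.19% the E-box and 8.96% the EGR sequence in it. The AP-1 motif TGANTCA (4.19%) and the CArG box (1.09%) were in none of the 6. A match describes the letters and is not a bound site. Windows were found for 60 of the 84 genes that fell (71.4%) and 60 of the 75 that rose (80.0%), so that no share over these groups is read. Histone marks had been profiled in dark and after light of 1 h, with 1 library for each peak list. At all 6 starts the authors listed a peak of H3K4me3, a mark of active promoters, within 1000 bases in both lists, with their own fold enrichment of 17.2 to 37.4. H3K27ac, found at active enhancers as well as promoters, was listed there as well in both, at 5.58 to 13.8. Such peaks are common at the genes tested, with 90.5% to 91.7% near an H3K4me3 peak and 67.1% to 68.4% near an H3K27ac peak.

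The 4 libraries of the step held 12650298 to 14193096 counted reads, and all 16 libraries 12477382 to 30149286. All 4 belong to batch 2 of the labels and none carries the suffix s found in 4 deeper libraries of the experiment. Those 4, of dark CT17 and 0.5 h, repeat the numbers 1 and 2 of libraries without the suffix. Whether they share material was not checked, so that an n of 4 there may hold fewer separate samples. The 2 libraries of a time differed by a chi-square of 4.88 per degree of freedom after 1 h and 5.85 after 3 h, and were counted as separate samples. SCN neuron markers were present in all 4, with a summed level of 3024 to 3290 CPM over 12 genes (CPM, read counts brought to a common library total). Markers of neighbouring hypothalamic neurons summed to 491 to 571 CPM over 15 genes.

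Between 1 h and 3 h of light all Egr and Nr4a genes (7 of the 10 in their list) and 6 of 8 AP-1 genes fell. Other genes rose, mostly by smaller amounts. Of 14524 genes tested by edgeR's quasi-likelihood test, 159 differed at an adjusted p of 0.05 (1.09%), 75 of them higher after 3 h (0.516%) and 84 lower (0.578%). The median log2 change of all genes tested was -0.000966, that of the rises 0.62 and that of the falls -0.73. More than 2-fold changes were called for 31 falls and 16 rises, and 10 falls exceeded 4-fold. In each of the 159 genes both libraries of one time lay above both of the other. At an unadjusted p under 0.05 there were 1507 genes. Leaving out a library lowered the number of calls to 69 without the first of 1 h, 75 without the second, 83 without the first of 3 h and 81 without the second. DESeq2 called 226, and a fit of the 4 libraries alone 232. Light of 1 h ended at CT18 and light of 3 h at CT20, and no dark library stands at either time, so that length of light and time of day cannot be told apart. In whole tissue, fewer cells of a type and less RNA per cell cannot be told apart either.

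**Figure D1:**
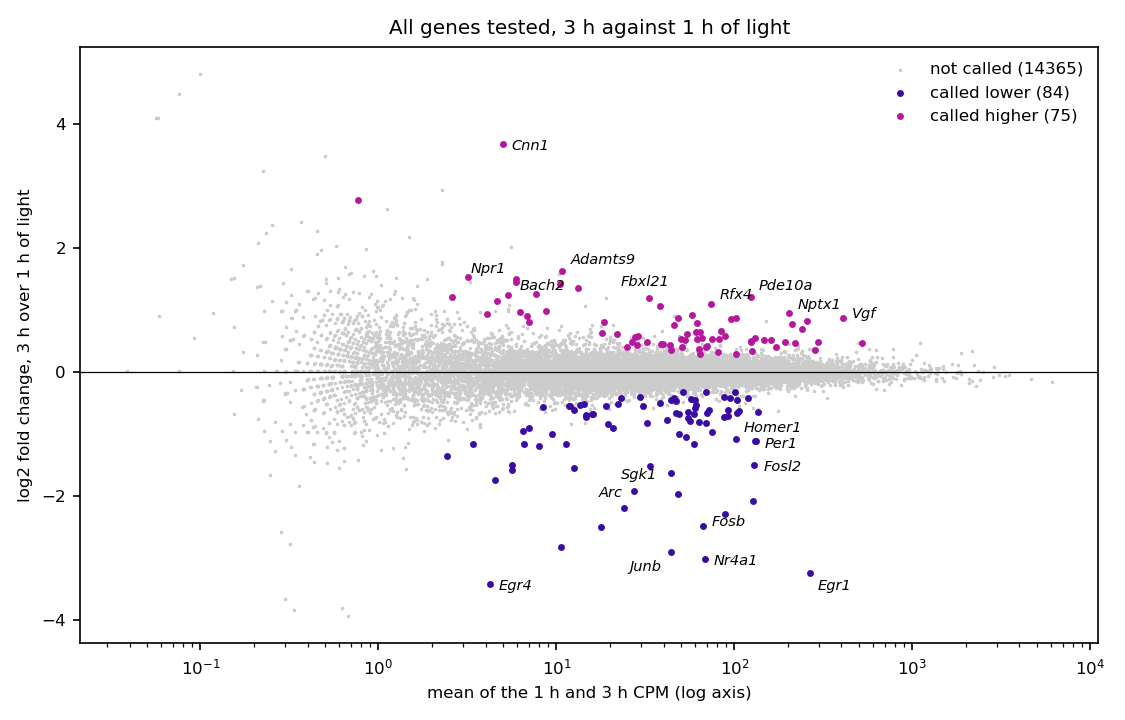
Log2 fold change of 3 h over 1 h of light (y axis) against the mean CPM of both times (log x axis), for every gene tested; called genes are coloured by direction and those described in the text are named. The largest changes of well-expressed genes lie below 0, with Egr1 at -3.26. Most calls in both directions lie under 2-fold, with 31 of 84 falls and 16 of 75 rises above it.

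The Egr and Nr4a families, zinc-finger factors and orphan nuclear receptors that act as first-wave regulators, held the largest falls. Of 10 members of their list tested, 7 fell, the Egr and Nr4a genes named below. The other 3, which are not Egr or Nr4a genes, did not pass, and the list median was -2.35. Egr1 stood at 523 and 435 CPM after 1 h and at 51.3 and 49.0 CPM after 3 h, a log2 change of -3.26 ± 0.19 (SE; adjusted p = 1.33e-07). The 2 times lay far apart, and the 3 h libraries were still above the dark ones at CT17, which ranged from 10.2 to 19.4 CPM. Egr4 fell from 7.53 and 7.99 to 0.397 and 1.02 CPM (-3.42 ± 0.33), Egr2 from 19.1 and 18.2 to 2.38 and 2.84 CPM (-2.83), and Egr3 from 31.4 and 29.1 to 6.04 and 4.58 CPM (-2.51). Egr4 thus rested on few reads after 3 h, and its change was -2.91 without the first 3 h library and -4.26 without the second. Nr4a1 fell from 125 and 120 to 14.1 and 16.1 CPM (-3.02 ± 0.15, adjusted p = 5.14e-08). Nr4a2 and Nr4a3 fell by less in log2, at -2.20 and -2.09, and both had been lower after 0.5 h than after 1 h, with Nr4a3 at 89.7 ± 15.4 CPM (SD, n = 4) and then at 207 and 204 CPM. All 7 calls held in each of 13 alternative fits.

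Of 8 subunits of the AP-1 factor tested, 6 fell and 2 did not pass, with a list median of -1.50. Junb fell from 73.2 and 82.4 to 8.58 and 11.9 CPM (-2.92 ± 0.16, adjusted p = 1.12e-07), and Fosb from 114 in both libraries to 18.8 and 21.7 CPM (-2.48 ± 0.16). Fos fell from 144 and 149 to 26.0 and 33.8 CPM (-2.29 ± 0.15, adjusted p = 3.87e-07), having been at 215 ± 11.5 CPM (SD, n = 4) after 0.5 h. Fosl2, a Fos relative that was at 61.3 ± 7.23 CPM (SD, n = 4) after 0.5 h, fell from 189 and 190 to 58.7 and 74.8 CPM (-1.50 ± 0.14). Its level after 3 h was close to that after 0.5 h, whereas Fos was far below it. Jun fell by less, from 111 and 112 to 66.3 and 79.6 CPM (-0.61 ± 0.11, adjusted p = 0.00931), and Atf3 had a log2 change of -1.50 ± 0.32 (adjusted p = 0.0336). The call of Atf3 was lost without each of the 4 libraries in turn and that of Jun without 3 of them, with adjusted p up to 0.243 and 0.185. Jund, at 85.4 and 79.5 and then 85.5 and 91.5 CPM, and Fosl1, at 2.13 and 2.09 and then 3.34 and 2.69 CPM, did not pass (adjusted p = 0.856 and 0.66). Thus the subunits differed widely in how far they fell, from -2.92 for Junb to -0.61 for Jun among those that passed. Npas4, an activity-induced bHLH-PAS factor, was already at 13 and 9.86 CPM after 1 h against 47.4 ± 4.25 CPM (SD, n = 4) after 0.5 h, and its 9.46 and 6.84 CPM after 3 h did not differ by the test (adjusted p = 0.431).

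**Figure D2:**
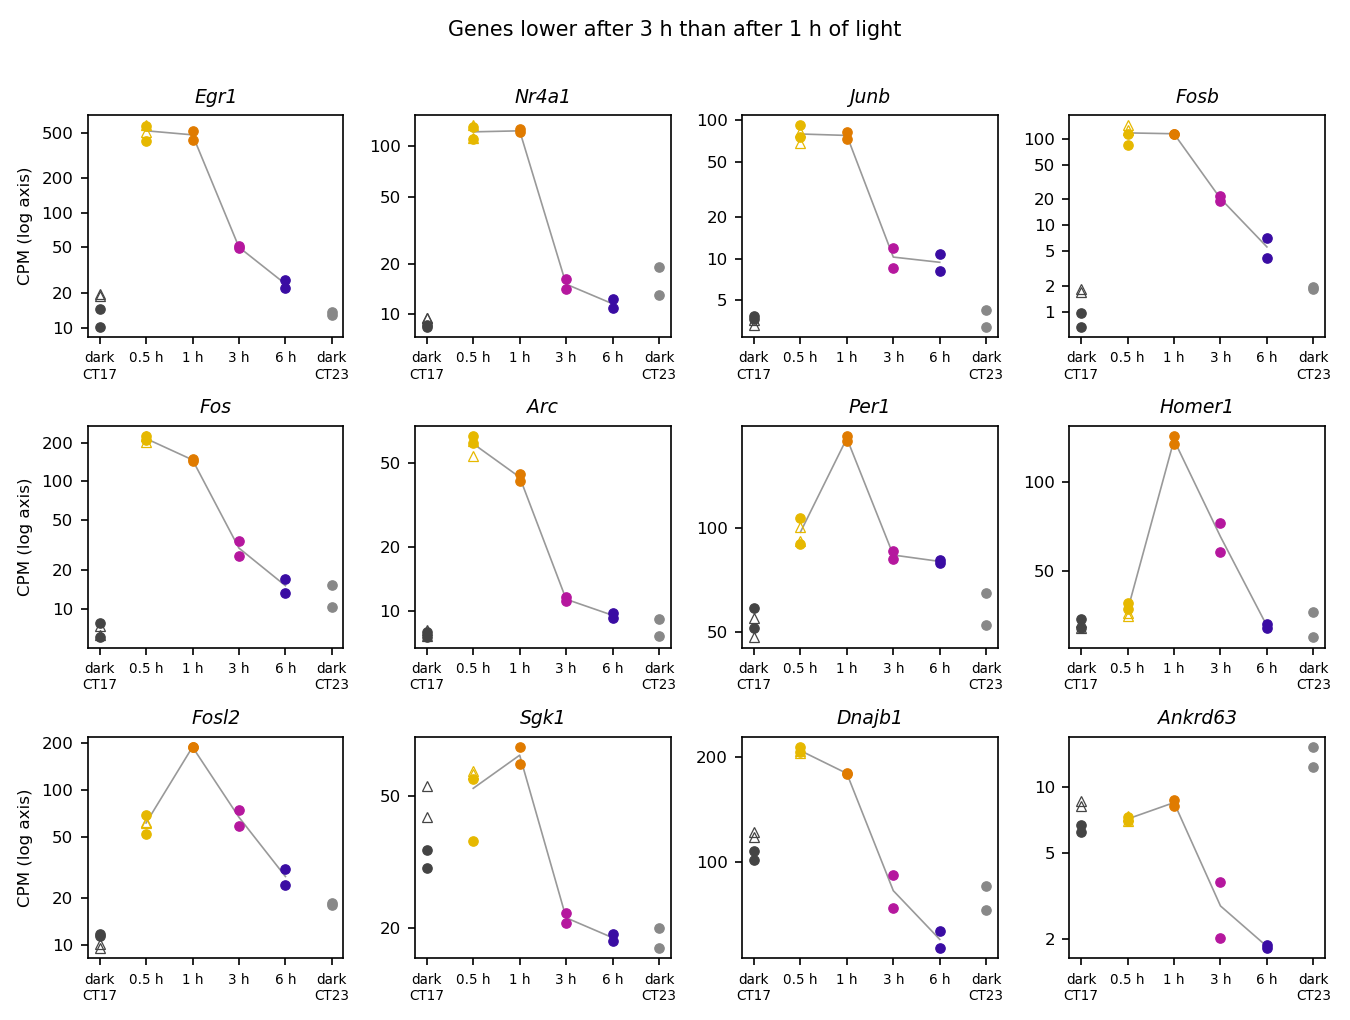
CPM of 12 genes called lower after 3 h than after 1 h, on log y axes, by group; circles are libraries without the suffix s, open triangles those with it, and the grey line joins the means from 0.5 h to 6 h of light. Egr1, Nr4a1, Junb and Fosb drop by more than 4-fold from 1 h to 3 h, Per1, Homer1 and Fosl2 peak at 1 h, and Sgk1, Dnajb1 and Ankrd63 go below the dark libraries at CT17.

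Among 24 other immediate-early genes 9 fell and 15 did not pass (median -0.29). Without the first library of 1 h or of 3 h 4 of them passed, and without the second of either time 6. Btg2, a cofactor of mRNA deadenylation, fell from 83.3 and 71.2 to 20.7 and 18.5 CPM (-1.98 ± 0.11, adjusted p = 1.33e-07). Arc, a synaptic protein gene, fell from 41.4 and 44.7 to 11.6 and 11.1 CPM (-1.92 ± 0.11), against the 7.78 ± 0.294 CPM (SD, n = 4) of dark CT17. The zinc-finger factor Klf4 fell from 20.1 and 17.1 to 7.23 and 5.53 CPM (-1.54 ± 0.22), and the matricellular gene Cyr61 from 17 and 14.2 to 6.44 and 7.49 CPM (-1.16 ± 0.16). These 4 calls held in all 13 alternatives. Of the other 5, named here after their values were seen, Gadd45b lost its call in 10 of the 13, Trib1 in 8, Klf10 in 5, Csrnp1 in 3 and Ier2 in 2. Outside the lists, the largest falls also held Arl4d, a small GTPase gene, from 7.15 and 6.72 to 2.38 and 1.75 CPM (-1.75 ± 0.26, adjusted p = 0.00244), a call lost without the second 3 h library (adjusted p = 0.0644).

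Genes whose products restrain the signal fell too, though not as a class. Of 15 MAPK phosphatase and Sprouty genes 3 fell and 1 rose. Dusp1, a phosphatase that switches off MAP kinases, fell from 69.7 and 60.0 to 32.1 and 32.6 CPM (-1.0 ± 0.11, adjusted p = 0.000113). Dusp4, of the same family, fell from 25.5 and 29.2 to 13.4 and 15.6 CPM (-0.91 ± 0.16, adjusted p = 0.0111) and Spry2 from 47.6 and 42.2 to 33.0 and 30.6 CPM (-0.50 ± 0.09, adjusted p = 0.0126). Their levels after 3 h were still above dark CT17, where Dusp1 was at 13.3 ± 0.864, Dusp4 at 3.59 ± 0.421 and Spry2 at 27.6 ± 2.20 CPM (SD, n = 4). Spred3, an inhibitor of Ras signalling, went the other way, from 72.7 and 64.2 to 136 and 112 CPM (0.86 ± 0.11, adjusted p = 0.000597). The calls of Dusp4 and Spry2 were lost without 3 of the 4 libraries each, with adjusted p up to 0.184 and 0.208.

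Of 15 Ras-like GTPase and RGS genes 2 fell and 1 rose. Rrad, a small GTPase that limits calcium channels, fell from 47.3 and 52.6 to 16.2 and 18.5 CPM (-1.52 ± 0.17, adjusted p = 0.00012), still above the 3.96 ± 0.974 CPM (SD, n = 4) of dark CT17. Rgs2, which limits signalling by Gq, changed by -0.46 ± 0.10 (adjusted p = 0.0331), and Rasd1, a Ras-like protein of the SCN, by 0.54 ± 0.11 (adjusted p = 0.0226). Both of these calls were lost without each of the 4 libraries in turn, with adjusted p up to 0.405 and 0.23 over the alternatives.

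Members of the cAMP and CREB feedback list moved in both directions, 4 of 25 higher and 1 lower (median 0.10). Pde10a, a phosphodiesterase that breaks down cAMP and cGMP, was at 76.8 and 72.1 CPM after 1 h and at 179 and 166 CPM after 3 h (1.22 ± 0.07, adjusted p = 1.12e-07). It had the lowest adjusted p among the rises. Before the step Pde10a had stayed level, with 75.1 ± 4.25 CPM in dark CT17 and 72.6 ± 3.71 CPM after 0.5 h (SD, n = 4 each). Creb3l1, a bZIP factor held in the endoplasmic reticulum, rose from 37.9 and 30.0 to 63.0 and 61.3 CPM (0.87 ± 0.13, adjusted p = 0.00275). The cAMP phosphodiesterase gene Pde7b changed by 0.52 ± 0.09 and the kinase gene Sik3 by 0.49 ± 0.09, with adjusted p of 0.0108 and 0.0118. Sik1, a kinase of the same family that acts against CREB coactivators, fell from 129 in both libraries to 79.9 and 87.6 CPM (-0.62 ± 0.09, adjusted p = 0.00164). Without 3 of the 4 libraries in turn Pde7b and Sik3 lost their calls (adjusted p up to 0.15 and 0.166), Creb3l1 lost its call without the second 1 h library (0.0711) and Sik1 without a batch term (0.108).

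Of 23 core clock genes 2 fell and 2 rose, with a median of -0.06. Per1 fell from 185 and 179 to 81.4 and 85.7 CPM (-1.12 ± 0.10, adjusted p = 1.47e-05), and its libraries after 3 h stayed above the 48.2 to 58.5 CPM of dark CT17. Per2, its partner among the light-induced clock repressors, was at 103 and 81.6 and then at 120 and 124 CPM and did not pass (0.40 ± 0.10, adjusted p = 0.0648). It passed with DESeq2 (0.00863), with a term for the suffix (0.0477) and without the first 1 h library (0.00948). Fbxl21, an F-box protein that acts on cryptochromes, rose from 20.9 and 19.8 to 45.9 and 46.8 CPM (1.19 ± 0.11, adjusted p = 1.47e-05). Rora, a nuclear receptor that activates Arntl, rose from 201 and 166 to 271 and 323 CPM (0.69 ± 0.13, adjusted p = 0.0116), a call lost without the second library of either time (adjusted p up to 0.171). The repressor gene Bhlhe40 changed by -0.32 ± 0.06 (adjusted p = 0.0261), which was lost without each of the 4 libraries in turn (up to 0.217). For the other members log2 values ran from -0.33 for Ciart to 0.81 for Rorb, and Clock (0.04), Arntl (0.28), Cry1 (-0.12), Cry2 (-0.19) and Per3 (-0.22) were among those that did not pass. Rorb, at 117 and 99.8 and then 161 and 220 CPM (adjusted p = 0.13), passed with the suffix term (0.0117), in the 4 libraries alone (0.000796) and in label batch 2 alone (0.00498). Nr1d1, a repressor of Arntl, passed in the 4 libraries alone (adjusted p = 0.0363).

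The list of late-response neuronal genes also split, with 3 of 20 lower and 1 higher. Homer1, a scaffold of glutamate receptors whose short form is activity-induced (forms are not told apart in the counts), fell from 143 and 134 to 57.9 and 72.8 CPM (-1.08 ± 0.10, adjusted p = 2.01e-05). It had been at 36.9 ± 1.58 CPM (SD, n = 4) after 0.5 h and was at 33.2 and 32.2 CPM after 6 h, so that among the light times the 1 h libraries were the highest. Tiparp, an ADP-ribosyltransferase gene, fell from 87.1 and 76.8 to 35.2 and 38.2 CPM (-1.16 ± 0.12), and Plk2, a kinase gene, from 69.7 and 73.5 to 44.9 and 51.1 CPM (-0.58 ± 0.08). Tiparp and Plk2 were already above dark CT17 after 0.5 h, in the authors' RPKM (reads scaled by gene length and library total). Tiparp was then at 13.3 ± 1.01 against 6.91 ± 0.842 RPKM, and Plk2 at 18.8 ± 0.604 against 10.4 ± 0.587 RPKM (SD, n = 4 each). Nptx1, a neuronal pentraxin that gathers AMPA receptors, rose from 142 and 134 to 261 and 273 CPM (0.95 ± 0.07, adjusted p = 4.66e-06). All 4 held in the 13 alternatives.

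Several falls went below the level of dark CT17. The mean after 3 h was above all 4 libraries of dark CT17 for 45 of the 84 falls, within their range for 8 and below all 4 for 31. The same count was not made over all genes tested, and the CPM carry no batch correction. The falls were selected on these same 3 h libraries, which favours low means there, so that the counts are a description. None of these dark CT17 libraries is, like those of the step, in label batch 2 without the suffix s. Sgk1, a kinase induced by glucocorticoids, fell from 70.4 and 62.4 to 20.7 and 22.3 CPM (-1.63 ± 0.17, adjusted p = 6.77e-05), where dark CT17 ranged from 30.3 to 53.6 CPM. Its dark libraries at CT23, 17.4 and 20.1 CPM, were also lower than those at CT17 (-1.10, adjusted p = 0.00876). With Tsc22d3 (-0.61 ± 0.08) and Klf9 (-0.42 ± 0.08) it made 3 falls among 11 glucocorticoid-responsive genes, with 8 that did not pass (median -0.10). The list moved in both directions, with 5 log2 values above 0 and 6 below. At an unadjusted p under 0.05 in edgeR 5 were higher and 4 lower, and the 4 libraries alone called 1 higher. The call of Klf9 was lost without 3 of the 4 libraries (up to 0.235). Dnajb1, a co-chaperone of Hsp70, fell from 180 and 178 to 73.5 and 91.7 CPM (-1.11 ± 0.11, adjusted p = 4.08e-05), below the 101 to 122 CPM of dark CT17. It was the one member called among 17 cytosolic heat shock genes, of which 16 had a log2 value below 0 (median -0.21). In the authors' RPKM (reads scaled by gene length and library total), Dnajb1 was at 25.3 ± 3.47 after 3 h and 24.3 ± 3.14 in dark CT23. Tsc22d3 was at 12.9 ± 0.684 and 9.54 ± 0.219 RPKM and Klf9 at 24.3 ± 0.106 and 24.7 ± 0.0909 RPKM (SD, n = 2 each). These falls were thus near or above dark CT23. Of 16 genes listed for chaperones and stress of the endoplasmic reticulum 2 fell, and 15 lay below 0 (median -0.19). The 2 were Ddit3, a stress-response transcription factor gene and not a chaperone (-0.70 ± 0.13, adjusted p = 0.0113), and Sdf2l1 (-0.52 ± 0.11, adjusted p = 0.032). After 3 h and in dark CT23 Ddit3 was at 6.45 and 5.83 RPKM and Sdf2l1 at 10.4 and 9.70 RPKM. Without single libraries Ddit3 lost its call in 3 of 4 cases and Sdf2l1 in all 4, with adjusted p up to 0.164 and 0.319.

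Ankrd63 had another course. It was at 8.21 and 8.74 CPM after 1 h and at 3.66 and 2.04 CPM after 3 h (-1.58 ± 0.23, adjusted p = 0.00164), with 7.42 ± 1.15 CPM in dark CT17 and 7.13 ± 0.206 CPM after 0.5 h (SD, n = 4 each). After 6 h it was at 1.82 and 1.89 CPM against 15.3 and 12.3 CPM in dark CT23 (-2.94, adjusted p = 1.3e-05). Syt17, a synaptotagmin gene, was similar in its course: level at 92.9 ± 16.6 CPM in dark CT17 and 84.2 and 77.9 CPM after 1 h, then 45.0 and 47.3 CPM (-0.81 ± 0.17, adjusted p = 0.0299). Dsel (-0.74), Pkib, an inhibitor of protein kinase A (-0.72), and Cr2 (-1.35) also fell over the step and were lower after 6 h than in dark CT23. Syt17, Dsel, Pkib and Cr2 were singled out after their values were seen.

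The rises started from different levels. After 1 h of light the mean of the 75 was above all 4 libraries of dark CT17 for 27 genes, within their range for 27 and below all 4 for 21, and after 3 h it was above for 72 and within for 3. As for the falls, these counts were not made over all genes tested, and batch was not corrected in the CPM. The rises were selected on the same libraries, which favours low means after 1 h and high means after 3 h. The next 4 rises were put together after their values at 6 h were seen, so that these values are a description. Pde10a, described above, was at 91.2 and 92.7 CPM after 6 h against 84.7 and 90.3 CPM in dark CT23. Rfx4, a transcription factor gene of the developing brain and of cilia, was at 44.7 and 49.3 CPM after 1 h, 92.6 and 109 CPM after 3 h (1.10 ± 0.09, adjusted p = 4.68e-06) and 50.5 and 50.7 CPM after 6 h. Bach2, a repressor that pairs with small Maf proteins, was at 7.91 and 7.02, then 17.6 and 20.4 CPM (1.35 ± 0.15, adjusted p = 0.00012), and at 10.9 and 11.1 CPM after 6 h. It was the one member called among 5 small Maf and Bach genes. Adamts9, a secreted metalloprotease gene, was below dark CT17 after 1 h, at 4.64 and 5.82 against 9.70 ± 1.18 CPM (SD, n = 4), and above it after 3 h, at 17.5 and 15.1 CPM (1.64 ± 0.16, adjusted p = 4.37e-05). In these 4 genes the comparison of 6 h with dark CT23 gave log2 values from -0.21 to 0.21, none called.

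Another group of rises was still high at 6 h. Sema3e, a secreted guidance protein, was at 25 and 24.9 CPM after 1 h, 50.4 and 53.4 CPM after 3 h (1.06 ± 0.11, adjusted p = 5.58e-05) and 75.4 and 78.9 CPM after 6 h, against 21.9 and 21.5 CPM in dark CT23. With Adamts9 it made 2 rises among 15 genes of extracellular proteases and semaphorins (median 0.32). Vgf, the precursor of several neuropeptides, rose from 275 and 304 to 480 and 574 CPM (0.86 ± 0.16, adjusted p = 0.0118) and was at 518 and 602 CPM after 6 h. It was the one member called among 11 granin and prohormone genes. Fbxl21 went on to 73.2 and 56.7 CPM and Rora to 313 and 312 CPM. Npr1, the receptor of atrial natriuretic peptide, rose from 3.35 and 2.84 to 10.3 and 7.27 CPM (1.5 ± 0.28, adjusted p = 0.0159) and was at 18.9 and 16.1 CPM after 6 h. The call of Npr1 was lost without 3 of the 4 libraries (up to 0.186) and that of Vgf without 3 of them and without a batch term (up to 0.196). Slc2a13, a myo-inositol transporter gene, and Srxn1, which repairs oxidised peroxiredoxins, were singled out after their values were seen. Slc2a13 rose from 184 and 187 to 312 and 344 CPM (0.82 ± 0.08) and stayed at 329 and 346 CPM after 6 h, whereas Srxn1 rose from 163 and 148 to 269 and 259 CPM (0.77 ± 0.07) and was at 149 and 150 CPM after 6 h, still above the 80.1 and 77.8 CPM of dark CT23.

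**Figure D3:**
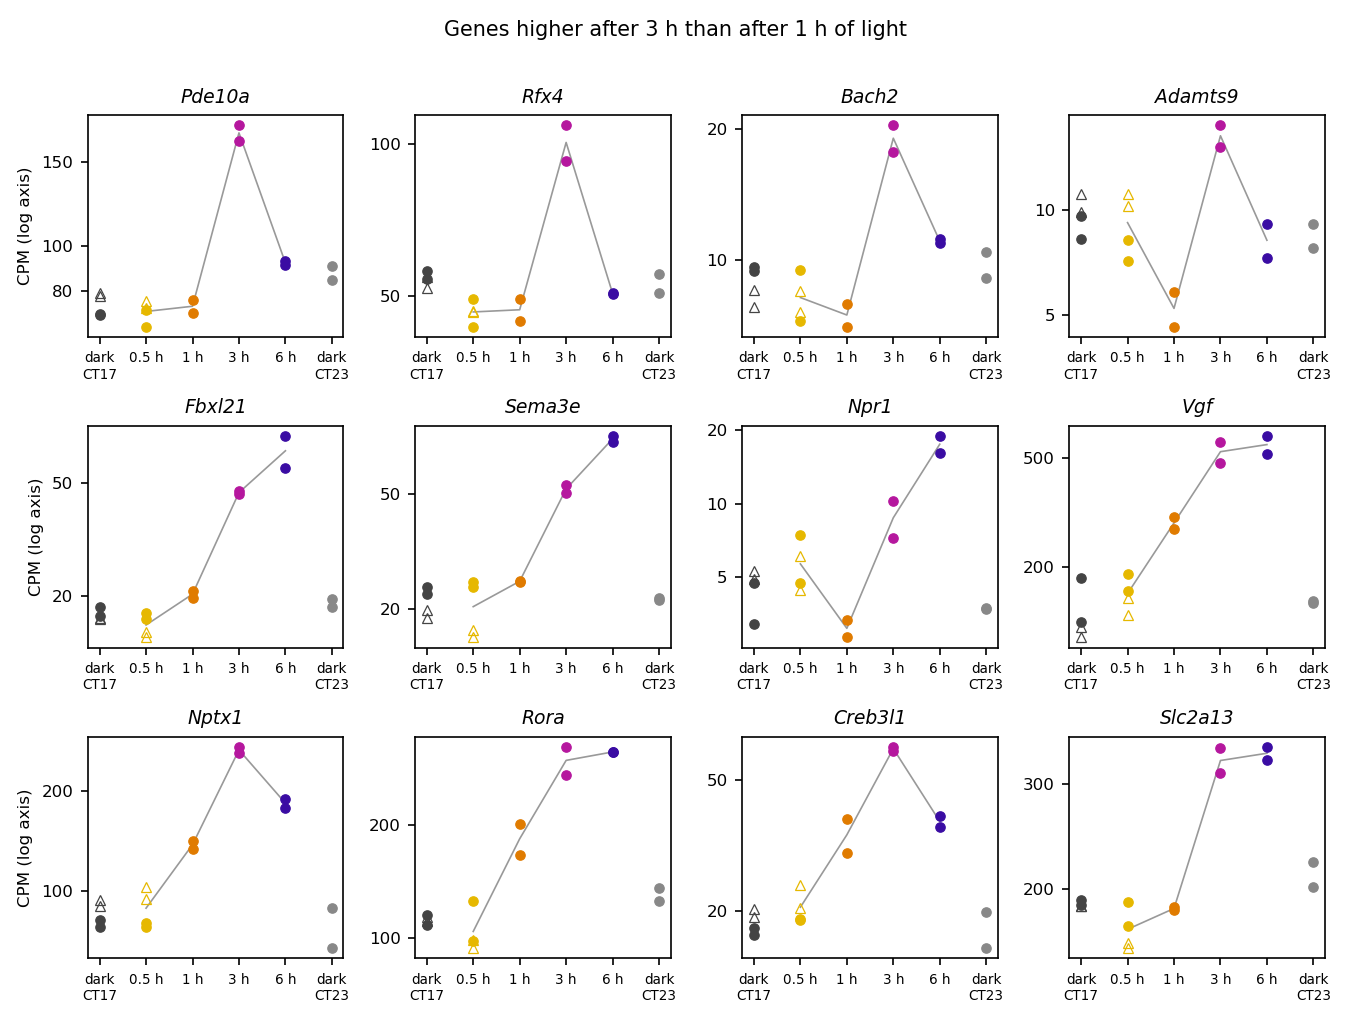
CPM of 12 genes called higher after 3 h than after 1 h, on log y axes, by group, with symbols and line as for the genes that fell. Pde10a, Rfx4, Bach2 and Adamts9 are high at 3 h and near dark CT23 again after 6 h, whereas Fbxl21, Sema3e, Npr1, Vgf, Rora and Slc2a13 are at or above their 3 h level after 6 h.

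Further large rises were of genes at low level. Cnn1, a calponin of actin filaments, went from 0.456 and 0.971 to 7.39 and 11.1 CPM (3.68 ± 0.74, adjusted p = 0.0252), but its change was 3.25 without the first 1 h library and 4.33 without the second. Zfp750, a zinc-finger factor, rose from 6.46 and 4.93 to 14.2 and 16.4 CPM (1.43 ± 0.20) and Cmklr1, the chemerin receptor, from 3.42 and 2.91 to 7.31 and 7.64 CPM (1.24 ± 0.17). The calls of these 2 held in the 13 alternatives. Pdzrn3 (1.46), Ism1 (1.14), Sh3d21 (0.98), Ccnf (0.96) and Cnn1 lost their calls without each of the 4 libraries in turn, with adjusted p from 0.208 to 0.374 at most. Hes5, a repressor of the Notch pathway, was at 3.65 and 5.38 CPM after 1 h, below dark CT17 (8.87 ± 2.12 CPM, SD, n = 4), and at 11.2 and 10.5 CPM after 3 h (1.26 ± 0.23, adjusted p = 0.0138), a call lost without 3 of the 4 libraries (up to 0.236). Of 10 genes of gp130 cytokine signalling all had a log2 value above 0 (median 0.30), and 2 passed, the cytokine gene Lif (1.22 ± 0.28, adjusted p = 0.0492) and Socs3, an inhibitor of JAK and STAT signalling (0.93 ± 0.21, adjusted p = 0.044). Lif lost its call in 9 of the 13 alternatives (adjusted p up to 0.359) and Socs3 in 6 (up to 0.413). None of the 10 passed with DESeq2, with the 12 libraries without the suffix, or without the second 1 h, the first 3 h or the second 3 h library.

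Of 19 SCN peptides and receptors, Npr1 was the one that passed (median 0.11). Vip was at 324 and 301 and then 250 and 253 CPM (-0.31, adjusted p = 0.578), Grp changed by -0.17, Nms by 0.28, Cck by -0.38 and Avp by 0.43 ± 0.48. Avp passed in the 4 libraries alone (adjusted p = 0.0378). Prok2, an output peptide of the SCN, was at 18.5 and 15.2 CPM after 1 h and at 12.1 and 12.4 CPM after 3 h (-0.46, adjusted p = 0.455), in both cases above the 1.22 ± 0.538 CPM (SD, n = 4) of dark CT17. The receptor genes Vipr2 and Avpr1a both had a log2 value of -0.61 (adjusted p = 0.246 and 0.0947). Vipr2 passed in the 4 libraries alone (0.00143) and in label batch 2 alone (0.013), and Avpr1a in both (0.011 and 0.0488), with DESeq2 (0.0398) and with the 12 libraries without the suffix (0.0307). In the edgeR fit of all 16 light-pulse libraries no member was called among 14 SCN identity transcription factors, 34 potassium channel genes, 19 calcium and sodium channel genes, 22 glutamate receptor genes, 20 GABA synapse genes and 2 cold-inducible RNA-binding proteins. Of these 111 genes 4 were higher and 4 lower at an unadjusted p under 0.05, and DESeq2 called 1 glutamate receptor gene and 1 GABA synapse gene higher. The 4 libraries alone and label batch 2 alone each gave 1 SCN identity factor and 1 glutamate receptor gene higher, and the suffix term gave 1 SCN identity factor. Among 18 cholesterol synthesis genes 1 fell, Fdft1, a call lost in 9 of the 13 alternatives and without each of the 4 libraries in turn (adjusted p up to 0.39).

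**Figure D4:**
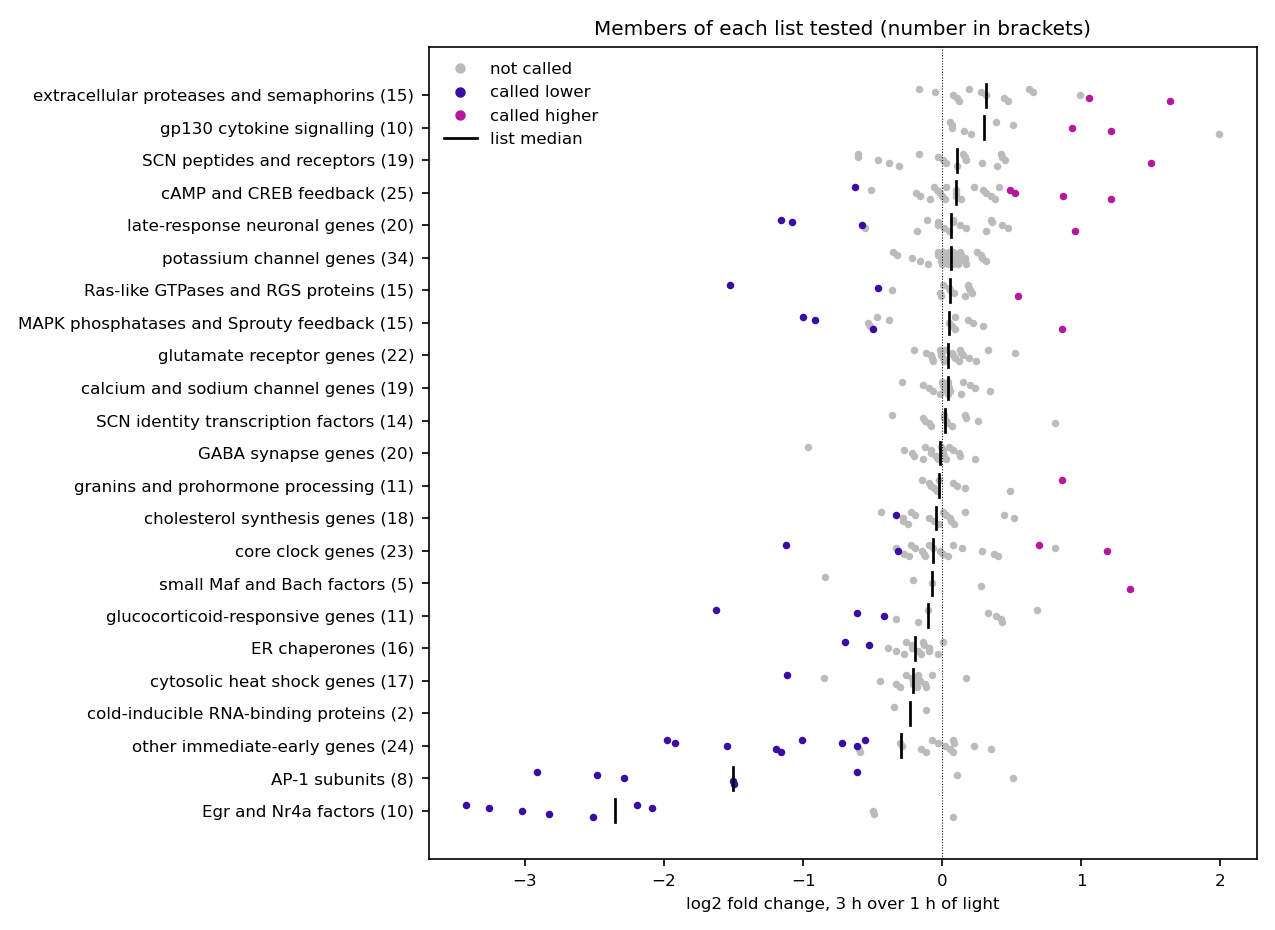
Log2 fold change of 3 h over 1 h of light (x axis) for each member tested of 23 gene lists, with called members coloured by direction and the list median as a bar. The medians of the Egr and Nr4a list and of the AP-1 list lie farthest to the left, at -2.35 and -1.50. The channel and receptor lists lie around 0.

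Levels of different genes were compared per length, in the authors' RPKM, for 4 of the called genes. Egr1 was at 105 ± 13.2 RPKM after 1 h and at 11.0 ± 0.564 RPKM after 3 h, and Fos at 61.1 ± 1.43 and then 12.5 ± 2.08 RPKM (SD, n = 2 each). Vgf was at 95.6 ± 7.16 and then 174 ± 18.6 RPKM. Egr1 and Vgf were thus within their spread of each other after 1 h and far apart after 3 h. Pde10a, at 5.80 ± 0.243 and 13.5 ± 0.974 RPKM, passed Egr1 between the times.

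Several readouts share no library with the step. Of the 84 falls, 40 were called higher after 0.5 h of light than in dark CT17 (0.427% of all genes tested) and none lower (0.0138%). Among them were Fosb (6.40), Egr2 (6.09), Egr1 (5.03) and Fos (4.96), in log2. Of the 75 rises none was called higher at 0.5 h, and 2 were lower, Rasd1 (-0.46) and Cited2 (-0.29). At an unadjusted p under 0.05 in edgeR, 1 fall was lower and 6 rises were higher at 0.5 h, and DESeq2 called none of either. After 6 h against dark CT23 33 of the 75 rises were called higher (0.723%) and none lower (0.282%), with the largest values in Cnn1 (5.29), Npr1 (2.20), Vgf (2.05), Sema3e (1.99) and Fbxl21 (1.84). Of the falls 4 were higher, Junb (1.43), Dusp4 (1.05), Ier2 (1.01) and Per1 (0.51), and 6 were lower, the 5 with the course of Ankrd63 and Tsc22d3 (-0.49). No rise was called lower after 6 h by DESeq2 either, and 1 was lower at an unadjusted p under 0.05 in edgeR. With the 12 libraries without the suffix, 20 of the 50 rises called there were higher after 6 h. Without a library of the step, where fewer rises were called, this number was 13 and 10 for the first and second of 1 h and 17 and 12 for those of 3 h. The genes Cited2, Cr2, Syt17, Dsel and Pkib are named here for their calls, after their values were seen.

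In the wild-type littermates, 57 of the 84 falls were called higher after 1 h of light than in the dark (2.23%) and none lower (0.34%). Egr1 was there at 8.04 ± 1.06 CPM in the dark and at 601 ± 29.0 CPM in the light, Per1 at 48.6 ± 1.67 and 218 ± 4.89 CPM (SD, n = 3 each). At an unadjusted p under 0.05 in edgeR 2 falls were lower, and DESeq2 called 1. Without a library of the step, the 57 became 36 and 41 for the first and second of 1 h and 35 and 38 for those of 3 h. Of the 75 rises 17 were higher and 1, Hes5 (-1.29), was lower. Nptx1 (1.79), Srxn1 (1.34), Creb3l1 (1.33), Vgf (1.3) and Rora (1.09) were among the 17, whereas Pde10a (0.01), Bach2 (0.15), Rfx4 (0.00) and Sema3e (-0.17) did not pass. Between Npas4 null and wild-type mice in the light, 4 of the 159 genes differed (0.467%). Npr1 was higher in the null (0.273% of all genes tested were), at 16.8 ± 2.46 against 7.31 ± 0.887 CPM, as was Fndc9 (0.39), and Klf10 (-0.81) and Abcc8 (-0.81) were lower (0.193%; SD, n = 3 each). Fndc9 and Abcc8 are named for these calls. Without one library of the step or of the littermates this number was 1 to 4, and it was 18 with DESeq2. The null libraries still carried Npas4 counts, 8.60 ± 2.89 CPM in the dark and 5.79 ± 1.63 CPM in the light against 8.39 ± 0.223 and 12.8 ± 1.79 CPM in the wild type. No source used here gives the deleted part of the gene, so that these counts do not check the labels.

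Between the dark times, CT23 against CT17, 17 of the 159 genes differed (0.475%). Of the falls 8 were higher at CT23 (0.207%), among them Fos (0.88), Nr4a1 (0.79) and Ankrd63 (0.89), and 6 lower (0.269%), among them Sgk1 (-1.10), Tsc22d3 (-0.83) and Dnajb1 (-0.51). Of the rises Srrm4 was higher (0.45) and Rasd1 (-0.66) and Fgf2 (-0.56) lower. Srrm4 and Fgf2 are named for these calls. This number moved with the libraries used, to 1 with the 12 libraries without the suffix, to 3 without the second CT23 library, to 47 without the first and to 48 in label batch 2 alone. Without one of the CT17 libraries it was 8, 4, 11 and 6 (1, 1s, 2 and 2s), without those of 1 h 6 and 11, and without those of 3 h 12 and 11. Fos at CT23 was at 15.3 and 10.3 CPM, against 26.0 and 33.8 CPM after 3 h of light.

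Of the markers of other cell types 1 gene was called, Olig2 (-0.45), a transcription factor of the oligodendrocyte lineage. All 10 oligodendrocyte markers had a log2 value above 0 (median 0.28) with none called. Their summed level was 4262 and 6259 CPM after 1 h and 6774 and 6187 CPM after 3 h, so that the first 1 h library stood apart. All 5 blood cell markers lay below 0 (median -0.39), with 60.8 and 111 and then 54.2 and 78.0 CPM. Microglia, endothelial, pericyte, meningeal and ependymal markers gave no call by edgeR, with 1 of them, a microglia marker, lower at an unadjusted p under 0.05. Of 8 meningeal markers 7 lay above 0 (median 0.29), of 8 ependymal markers 7 below 0 (median -0.17) and of 15 markers of neighbouring hypothalamic neurons 13 above 0 (median 0.20), with none called. The summed levels overlapped between the times for the meningeal and neuronal markers and were lower after 3 h for the ependymal ones, at 80.8 and 84.6 and then 105 and 78.7 CPM for the meningeal, 456 and 428 and then 406 and 418 CPM for the ependymal and 548 and 563 and then 491 and 571 CPM for the neuronal markers. Without the first 1 h library 69 genes were called, 29 higher and 40 lower. The part of these cells in the changes was not tested.

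The genes that rose were longer in the genome than those that fell. On the RefSeq annotation of GRCm38.p6 the median span was 63.3 kb for 74 of the 75 rises, 14.2 kb for 82 of the 84 falls and 25.6 kb for 13954 of the genes tested. Spans above 100 kb made up 37.8% of the rises, 11.0% of the falls and 15.8% of all, and spans under 10 kb 13.5%, 43.9% and 22.8%. Rora spans 735 kb on chromosome 9, Pde10a 461 kb on chromosome 17 and Bach2 348 kb on chromosome 4, whereas Junb spans 1.84 kb on chromosome 8 and Fos 3.39 kb on chromosome 12. There were exceptions among the named genes, as the rises Vgf (8.05 kb) and Nptx1 (9.10 kb) and the falls Homer1 (101 kb) and Sgk1 (118 kb) show. The medians of the transcript length implied by the authors' counts and RPKM differed by less, at 5.46, 3.52 and 4.15 kb. These are descriptions of the called sets with no test.

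**Figure D5:**
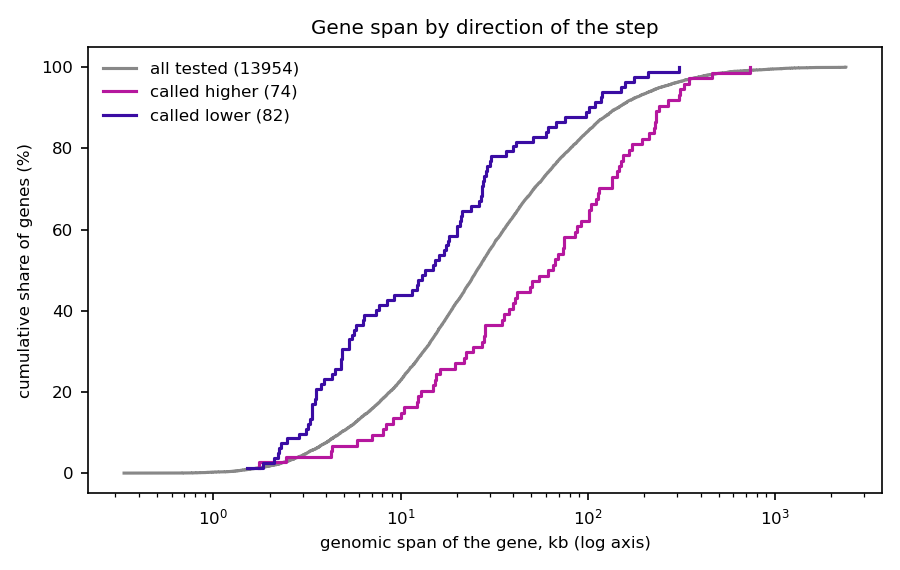
Cumulative share of genes (y axis, percent) by genomic span in kb (log x axis), for all genes tested with a span and for those called higher or lower after 3 h. The line of the falls lies to the left of all genes and that of the rises to the right, with medians of 14.2, 25.6 and 63.3 kb.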

How the data were processed

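Gene counts and RPKM of the light-pulse experiment and gene counts of the Npas4 experiment were used, with lists of H3K4me3 and H3K27ac peaks. The authors deposited raw gene counts and RPKM values (reads scaled by gene length and library total), as the file headers name them. The peak lists hold, per their headers and the labels, the authors' fold enrichment (a ratio) and a −log10 q-value, with 1 library for each list. The submitters' processing notes name build mm10, STAR 2.7.1a and 2.5.2b, HTSeq 0.9.1, featureCounts 1.6.2, BWA 0.7.16a and MACS2 2.1.1. No source used here gives the counting options, strand included, so that overlapping and antisense genes may share reads. The 18 single-nucleus samples were not used here.

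Counts were fitted with edgeR 4.0.16 in R 4.3.3 (TMM scaling, filterByExpr, glmQLFit and glmQLFTest), over all 16 light-pulse libraries with group and label batch as terms, and separately over the 12 libraries of the Npas4 experiment with group alone. P-values were adjusted by Benjamini-Hochberg over all 14524 and 15001 genes tested, of 21999 in the tables, and called at 0.05. CPM are counts brought to a common library total with the TMM factors. Standard errors are the log2 change divided by the root of F. The procedure was tested on simulated data. RPKM served for levels and, with the counts, for an implied transcript length. Spans and promoter windows came from RefSeq (GRCm38.p6), matched by symbol. Peaks were assigned to a start within 1000 bases.

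The text names the 15 largest rises and falls among called genes whose libraries did not overlap and whose mean was at least 5 CPM at 1 of the 2 times, called members of the gene lists (up to 4 a list), members of the clock, peptide and AP-1 lists, and Npas4; other names were chosen after their values were seen. The libraries, members, gene lists and rules were chosen with earlier results of these data known. Alternatives were RLE scaling, no filter, DESeq2 1.42.0, a suffix term, no batch term, 12, 4 or only batch 2 libraries, a replicate block and leaving out single libraries. Leaving out the dark, 0.5 h and 6 h libraries was added after seeing the data. In the Npas4 experiment, deviations of same-numbered wild-type dark and light libraries correlated at 0.221, 0.466 and 0.533, each above 0.1. The numbers were therefore taken to pair them, but the main fit holds no term for the pairs. A replicate block moved the count of falls higher in the light from 57 to 59.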

Additional observations from a re-analysis of the deposited data

Results flagged for a closer look

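In 3 of 60 groups of 4 libraries examined, a library stood apart from the other 3 by more than Dixon's 95% critical value for groups of 4, where chance gives about 1 group in 20. All 3 were groups of 0.5 h of light, which is no part of the step itself. Cnn1 was at 5.33 CPM in library 2 of 0.5 h and at 0.563 to 0.839 CPM in the others. Hes5 was at 5.32 CPM in library 2s and at 6.86 to 6.90 CPM in the others. Sgk1 was at 36.5 CPM in library 1 and at 56.4 to 59.7 CPM in the others.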

How the results depend on the processing

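Of 67 called genes followed under the naming rule, 35 stayed called in each of the 13 alternatives that were run on them, and 32 lost the call in at least 1; called genes outside this rule and its lists were not followed. None of the 159 called genes changed direction in any alternative. The number of genes called (159) was 110 to 232 in the alternatives that kept all 4 libraries of the step and left no other single library out. Genes higher after 3 h (75) became 127 with DESeq2, 117 with a suffix term, 123 in the 4 libraries alone and 121 in label batch 2 alone. The share of rises among the calls, 47.2%, was 56.2% with DESeq2, and RLE scaling gave 49.7%. Step genes that differ in the dark (17) were 29 with DESeq2, 8 with the suffix term, 10 without a batch term, 1 with the 12 libraries without the suffix and 48 in label batch 2 alone. Rises higher after 6 h (33) were 20 with the 12 libraries. Step genes that differ between null and wild-type mice in the light (4) were 18 with DESeq2 and 9 with the step fitted on its 4 libraries alone. Leaving out 1 library at a time gave 69 to 221 calls, 27 to 120 higher and 40 to 102 lower, with 27 to 42 falls higher at 0.5 h, 10 to 38 rises higher after 6 h, 3 to 47 genes that differ in the dark, 35 to 56 falls higher in the littermates' light and 1 to 4 between null and wild type. Where an arm kept 1 library, that library was assumed to vary like the other groups. The causes of these differences were not tested. Genes of low level rested on few reads, as Cnn1 at 1 h of light (0.456 and 0.971 CPM) and Egr4 at 3 h. Egr4 nevertheless kept its call in all 13 alternatives, and depth was not varied.

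The numbers 1 and 2 of the step's libraries pair nothing by the labels. Deviations of same-numbered libraries correlated at 0.176 with 2 pairs. With the replicate block 228 genes were called, the 159 among them, 110 higher and 118 lower, and 7 step genes differed between null and wild type; Per2 (0.029), Vipr2 (0.0234) and Avpr1a (0.0229) then passed. In the Npas4 experiment null and wild-type light libraries of the same number correlated at 0.0216, 0.29 and 0.456 and so were not taken as paired. A replicate block there gave 21 step genes that differ between null and wild type, against 4 in the main fit.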

Other observations

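Further called genes are named here, chosen after their values were seen. St8sia6, a gene of an enzyme that adds sialic acid to glycans, rose from 38.2 and 41.3 to 71.3 and 79.3 CPM (0.92 ± 0.08, edgeR adjusted p = 9.43e-06). St3gal1, also a sialyltransferase gene, rose from 13.2 and 14.0 to 23.1 and 24.1 CPM (0.80 ± 0.09, adjusted p = 0.000158). St8sia6 was still at 73.6 and 71.7 CPM after 6 h of light. Baiap2, an adaptor of the actin cytoskeleton at synapses, rose from 44.8 and 45.0 to 79.6 and 76.3 CPM (0.80 ± 0.07, adjusted p = 1.47e-05) and was back at 45.7 and 50.6 CPM after 6 h. Slc6a17, a vesicular transporter of neutral amino acids, was among the most abundant genes that rose, from 444 and 438 to 598 and 618 CPM (0.46 ± 0.08, adjusted p = 0.00498). Furin, a protease that cleaves proproteins, changed by 0.44 ± 0.09 (adjusted p = 0.019).

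The falls named here were also chosen after their values were seen. Usp36, a nucleolar deubiquitinase, fell from 93.3 and 84.5 to 52.7 and 47.6 CPM (-0.83 ± 0.09, adjusted p = 0.00012), Cwc25, a splicing factor, from 41.0 and 41.4 to 21.9 and 24.4 CPM (-0.83 ± 0.10), and the cyclin gene Ccnl1 from 138 and 116 to 87.4 and 72.8 CPM (-0.66 ± 0.11). Ppp1r15a, which restores translation after stress by dephosphorylating eIF2alpha, changed by -0.52 ± 0.10 (adjusted p = 0.0223). These 4 were called higher after 1 h of light in the wild-type littermates, by 1.47, 1.6, 1.08 and 1.20 in log2. Arl5b, a small GTPase of the Golgi, fell from 74.7 and 70.4 to 33.9 and 36.1 CPM (-1.05 ± 0.12, adjusted p = 0.000152), with 33.5 ± 3.49 CPM (SD, n = 4) in dark CT17. Txnip, a thioredoxin inhibitor, fell from 99.5 and 98.6 to 45.9 and 54.8 CPM (-0.97 ± 0.18, adjusted p = 0.0137), with a wide spread in dark CT17 (64.0 ± 16.8 CPM).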
